A study of Mus musculus with 59 samples.

Results

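The 4 Hox clusters of the mouse, Hoxa, Hoxb, Hoxc and Hoxd, were followed through normal ovarian epithelium, primary serous epithelial ovarian cancer (SEOC) and orthotopic passages of it. The members were all Hox genes of these clusters with a probe set, the array's unit of measurement, that names that gene alone. Of 38 Hox genes, 33 met this rule with 48 probe sets, and 5 (Hoxa6, Hoxb8, Hoxc11, Hoxc12 and Hoxd4) had no probe set of their own and were not measured here. The 33 genes stood among 18193 genes in all. Each gene was represented by its brightest probe set, and levels are log2 RMA values, so a difference of 1 is a doubling of signal.

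Hox genes encode homeodomain transcription factors that give cells their position along the body axis. Within a cluster, genes with low numbers are used anteriorly and early, and genes with high numbers posteriorly and late. Along the female reproductive tract, Hoxa9, Hoxa10, Hoxa11 and Hoxa13 mark successive segments of the Mullerian duct, whereas the ovarian surface epithelium does not arise from that duct. Trithorax proteins hold Hox genes active, Polycomb proteins hold them silent, retinoic acid induces the anterior ones, and PBX, MEIS and PKNOX proteins of the TALE family bind DNA together with HOX proteins.

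All samples came from FVB/NJ mice. In the tumors, adenoviral Cre delivered into the ovarian bursa had switched on the K18 transgene, which expresses a T121 fragment that inactivates RB proteins, and had recombined the other alleles. The published set held 5 primary tumors with Brca2 deleted (B2 fl/fl) and a p53 missense allele over a deleted one (p53 m/fl), 3 with Brca1 deleted (B1 fl/fl) and the same p53 alleles, 14 with Brca1 and p53 deleted (B1 fl/fl with p53 fl/fl), 4 with wild-type Brca genes and p53 deleted (p53 fl/fl), and 3 samples of normal ovarian epithelium labelled wild type. The new set held tumors in which p53 was deleted: 2 primary tumors with Brca1 deleted as well (labelled B1 D/D) and 3 with wild-type Brca genes, and 25 tumors passaged as fragments under the ovarian bursa of immunocompetent FVB females. The passaged tumors numbered 8 at passage 1, 9 at passage 2, 4 at passage 3, 2 at passage 4 and 2 at passage 5, and those from passage 3 on were all Brca1-deficient. The labels used here do not tie a passaged tumor to the primary tumor it came from, and no source states that the normal samples are from different animals, so p-values measure the spread between these samples only.

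In 2 pairs of arrays the values differed less than elsewhere, with an SD of the log2 difference over all probe sets of 0.0722 for tumors 65021 and 64644 at passage 3 and 0.0803 for tumors 62803 and 61362 at passage 2. The next closest pair had 0.209. Each of the 2 pairs was counted as 1 sample, which leaves 23 passaged tumors. The passage 2 pair carries different Brca1 labels and was left out wherever genotype was part of the model. Primary tumor 30200 was arrayed in both sets, and its 33 Hox levels differed by a median of 0.14 between the arrays, with the widest gap for Hoxd8 (8.95 in the new set, 7.81 in the published set). Ovarian surface epithelium markers averaged 10.89 to 12.17 in published primary tumors and 10.98 to 11.61 in normal epithelium. The normal samples also carried RNA of other ovarian cells. Oocyte markers averaged 5.14 to 5.71 in published primary tumors and 8.74 to 9.85 in normal epithelium, granulosa, theca and luteal markers 7.01 to 8.73 in tumors and 10.19 to 10.39 in normal epithelium, and fibroblast and stroma markers 7.25 to 10.98 in tumors and 11.02 to 11.14 in normal epithelium. Of these lists, 8 of 8 oocyte genes, 7 of 8 granulosa, theca and luteal genes and 7 of 11 stromal genes fell in published primary tumors.

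The results turn on 3 neighboring genes of the Hoxd cluster, Hoxd8, Hoxd9 and Hoxd10, and on Hoxb1, the most anterior Hoxb gene. Their promoters, the 250 bases before the start of each gene, are shown from RefSeq (build GRCm38.p6, plus strand, at chr2:74704365-74704614, chr2:74697513-74697762, chr2:74691641-74691890 and chr11:96365508-96365757 in this order). Capitals mark, on either strand, a CCAAT box (a common binding site of NF-Y), a GC box, which is spelled GGGCGG and binds SP factors, or the motif TGATNNAT, which PBX and HOX proteins bind together.
Hoxd8: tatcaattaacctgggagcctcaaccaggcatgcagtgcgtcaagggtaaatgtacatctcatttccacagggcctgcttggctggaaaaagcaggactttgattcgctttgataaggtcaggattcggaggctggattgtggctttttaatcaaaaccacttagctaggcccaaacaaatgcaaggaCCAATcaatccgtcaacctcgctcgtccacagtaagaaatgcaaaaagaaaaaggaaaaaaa
Hoxd9: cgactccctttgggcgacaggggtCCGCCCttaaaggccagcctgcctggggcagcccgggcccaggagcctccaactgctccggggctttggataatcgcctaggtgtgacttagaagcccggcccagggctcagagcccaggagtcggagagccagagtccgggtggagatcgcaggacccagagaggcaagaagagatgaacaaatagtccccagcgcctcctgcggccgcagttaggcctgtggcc
Hoxd10: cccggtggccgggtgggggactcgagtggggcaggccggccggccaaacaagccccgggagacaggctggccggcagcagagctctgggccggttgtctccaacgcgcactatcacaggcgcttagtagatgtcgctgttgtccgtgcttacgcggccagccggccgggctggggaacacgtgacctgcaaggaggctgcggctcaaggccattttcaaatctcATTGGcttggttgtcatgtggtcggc
Hoxb1: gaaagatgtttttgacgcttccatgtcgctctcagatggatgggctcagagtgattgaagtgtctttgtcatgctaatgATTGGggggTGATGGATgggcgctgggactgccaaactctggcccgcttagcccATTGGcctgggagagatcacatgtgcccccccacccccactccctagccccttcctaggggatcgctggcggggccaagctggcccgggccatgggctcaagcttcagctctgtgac
Hoxd8 and Hoxd10 each held 1 CCAAT match, Hoxd9 held 1 GC box, and Hoxb1 held 2 CCAAT matches and 1 PBX-HOX match. Of the 32851 windows of this length in the table, 33.8% held a CCAAT box, 32.7% a GC box and 7.68% the PBX-HOX motif, on either strand. The table gave 24 windows for 22 Hox members, and 14, 10 and 4 of them held these motifs in the same order. The GC content was 44.4% for Hoxd8, 65.2% for Hoxd9, 65.6% for Hoxd10 and 59.2% for Hoxb1, beside a median of 52.4% over all windows.

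Whether Hox genes change when ovarian epithelium becomes SEOC was asked first in the published set, with 26 primary tumors against 3 normal samples. No Hox gene rose and 12 of 33 fell, that is, had an adjusted p below 0.05 (limma with Benjamini-Hochberg adjustment over all 18193 genes). Over all genes 26% fell and 15% rose. The median log2 change was -0.32 over the 33 Hox genes and -0.11 over all genes, and 25 of 33 Hox genes had a negative value. By cluster, 5 of 8 Hoxd genes, 5 of 9 Hoxa genes, 1 of 9 Hoxb genes (Hoxb2) and 1 of 7 Hoxc genes (Hoxc6) fell. By position, 3 of 7 genes numbered 1 to 3, 4 of 12 numbered 4 to 8 and 5 of 14 numbered 9 to 13 fell. Leaving out normal replicate 1 reduced the 12 falls to 7, without Hoxa3, Hoxa5, Hoxa13, Hoxc6 and Hoxd13, and leaving out replicate 2 or 3 gave 9 or 8. Hoxd8, Hoxd9, Hoxd10, Hoxa2 and Hoxa7 passed in each case. Shares of all genes in these refits are not given, so the lower counts are not read as a result about Hox genes.

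The Hoxd genes in the middle of the cluster fell furthest. Hoxd10, a posterior gene that patterns the lumbosacral axis and limb, lay between 4.62 and 12.80 with a median of 5.47 in the 26 primary tumors, against 11.88, 12.07 and 12.26 in normal epithelium. It fell by 6.23 on the log2 scale (SE 0.91, adjusted p = 3.43e-06). All tumors but 1 lay below all 3 normal samples. Probe sets of 3 Y-linked genes, which female mice lack, read 3.41 to 5.22 on these arrays, and 10 of 26 Hoxd10 tumor levels lay at or under the top of that range, so background limits the size of this difference and no fold is given. Hoxd9, which acts with Hoxd10 in hindlimb motor neurons and the limb, lay between 6.53 and 13.62 with a median of 8.80 in the tumors, against 13.19, 13.46 and 13.47 in normal epithelium. It fell by 4.43 (SE 0.83, adjusted p = 9.37e-05), again with 25 of 26 tumors below all normal samples. Hoxd8, on the anterior side of Hoxd9, lay between 7.22 and 12.90 with a median of 8.59 in the tumors, against 12.30, 12.63 and 12.67 in normal epithelium. It fell by 3.61 (SE 0.72, adjusted p = 0.000198). No tumor level of Hoxd9 or Hoxd8 lay in the range of the Y-linked probe sets. A second Hoxd8 probe set gave the same picture, with a median of 6.64 in the tumors and 11.13 in normal epithelium. Oocyte, granulosa and stromal markers were also lower in tumors, as given above, and their part in the fall of Hoxd8, Hoxd9 and Hoxd10 was not tested. In bulk tissue, fewer cells of a type and less RNA per cell cannot be told apart.

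**Figure D1:**
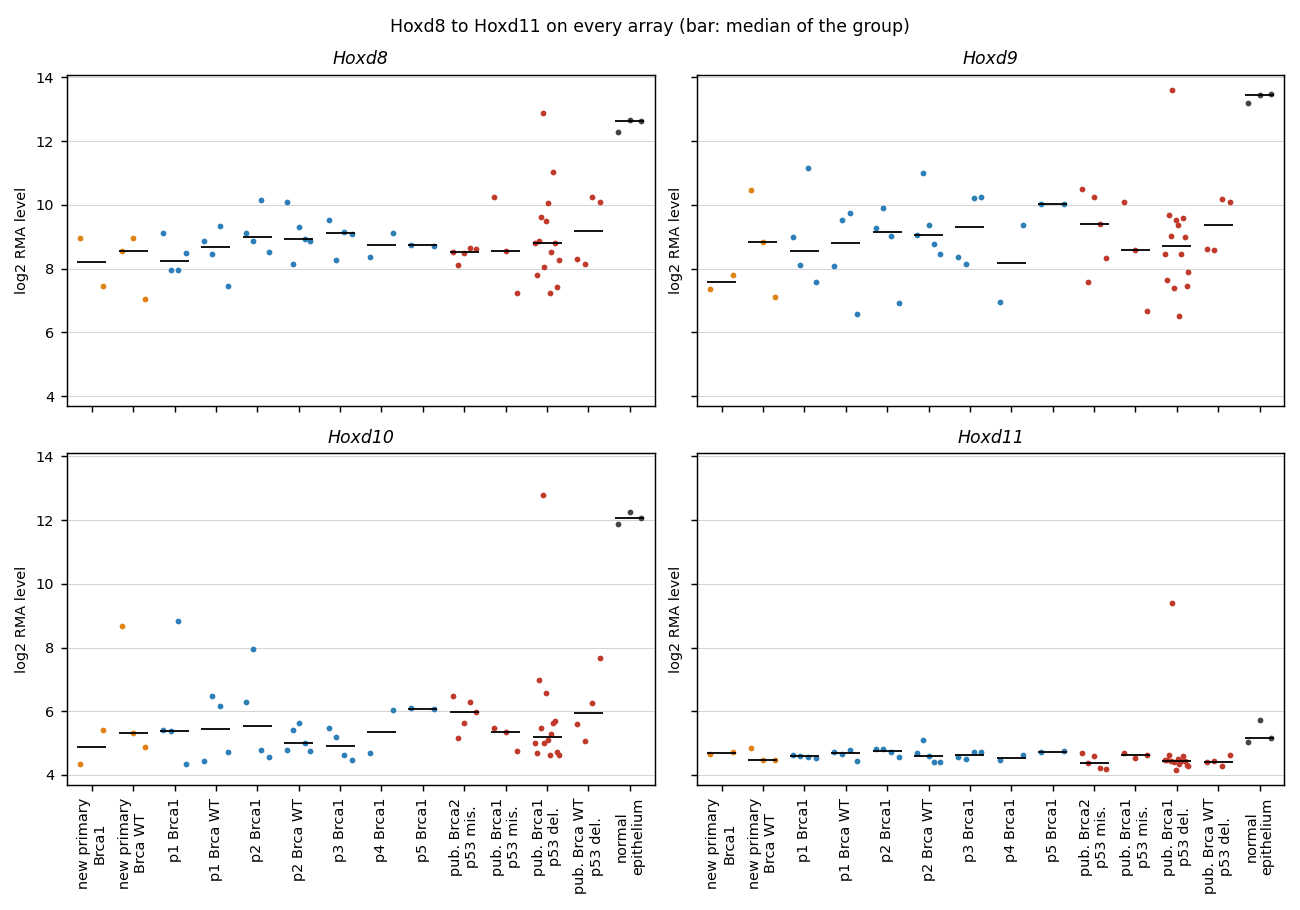
Levels of Hoxd8, Hoxd9, Hoxd10 and Hoxd11 (log2 RMA level, y axis) on all 59 arrays by group (x axis: new primary tumors, passages 1 to 5, published primary tumors and normal epithelium); points are arrays, colored by new primary, passaged, published primary and normal, and bars are group medians. Normal epithelium sits between 11.88 and 13.47 for Hoxd8 to Hoxd10, above every tumor except 1 published Brca1-deficient tumor.

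The genes on either side of these 3 follow, and no test compared their differences with those of Hoxd8, Hoxd9 and Hoxd10. Hoxd11, next to Hoxd10, had a median of 4.44 in the tumors (4.15 to 9.39), against 5.03, 5.17 and 5.71 in normal epithelium, and its difference of -0.67 did not pass the test (adjusted p = 0.355). Without the 1 tumor at 9.39 it passed. Hoxd11 lay below all normal samples in 25 of 26 published primary, 5 of 5 new primary and 22 of 23 passaged tumors, and 25 of the 26 published levels were in the range of the Y-linked probe sets. Hoxd10 and Hoxd11 overlap in the annotation, and whether the array keeps their transcripts apart was not tested. Hoxd12 fell by 0.32 (adjusted p = 0.0145), with 5.32 to 5.86 in tumors and 5.56 to 6.18 in normal epithelium, and Hoxd13, the gene of the digit and genital end, fell by 0.31 (adjusted p = 0.00795), with 5.73 to 6.14 in tumors and 5.96 to 6.61 in normal epithelium. Both overlapped with normal levels. The Hoxd13 call belonged to 1 of 2 probe sets. The other, at 4.16 to 4.66 in tumors and 4.35 to 4.49 in normal epithelium, did not pass. The anterior Hoxd3 (5.02 to 8.29, median 5.74, in tumors, and 6.30 to 7.48 in normal epithelium) and Hoxd1 (3.79 to 5.55, median 4.03, in tumors, and 3.86 to 4.22 in normal epithelium) did not pass the test.

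One published Brca1-deficient tumor, 235746, was the exception in the Hoxd cluster. It had 12.90 for Hoxd8, 13.62 for Hoxd9, 12.80 for Hoxd10 and 9.39 for Hoxd11, above all 3 normal samples, while the other 25 tumors reached at most 11.04, 10.50, 7.66 and 4.69. Hoxd1 (5.55) and Hoxd3 (8.29) were also higher in it than in the other 25 tumors, which reached 4.33 and 7.44. The brighter Hoxd13 probe set (5.73) was just under the lowest of the others (5.76). The second Hoxd13 probe set went the other way, at 4.66, the top of its range over the 26 tumors (4.16 to 4.66). Hoxd3os1, a noncoding RNA transcribed against Hoxd3, stood at 10.79 there. This tumor also had the highest mean of the oviduct and Mullerian marker list, 10.74, beside a median of 7.96 over the 26 tumors and 8.14 to 8.66 in normal epithelium, and it ranked 25 of 26 for surface epithelium markers (10.99). The part of that marker difference in its Hoxd levels was not tested. Without this tumor all 12 calls were kept.

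The Hoxa genes that fell did so by less. Hoxa2, which gives the second branchial arch its identity, lay between 4.33 and 4.76 with a median of 4.49 in the tumors, against 4.83, 5.58 and 5.66 in normal epithelium. It fell by 0.87 (SE 0.10, adjusted p = 9.11e-08), and the groups did not overlap, although all 26 tumor levels were in the range of the Y-linked probe sets. Hoxa7 lay between 6.63 and 7.11 with a median of 6.80 in the tumors, against 7.38, 7.56 and 7.94 in normal epithelium, fell by 0.79 (SE 0.10, adjusted p = 1.87e-07) and did not overlap either. These were the only members of the 33 for which all 26 tumors lay below all normal samples. No share of all genes with this pattern is given beside them, so it is not read as a trait of Hox genes. Hoxa3, which patterns the thymus and parathyroid, fell by 1.32 (SE 0.42, adjusted p = 0.0129), with 5.74 to 8.90, median 6.58, in tumors and 7.39, 8.13 and 8.63 in normal epithelium. Of its 4 probe sets, 2 passed the test, and its annotated span overlaps those of Hoxa4, Hoxa5 and Hoxa6. Hoxa5 fell by 0.56 (adjusted p = 0.0146) and Hoxa13, the most posterior Hoxa gene, by 0.28 (adjusted p = 0.0277). For Hoxa13, 13 of 26 tumor levels were in the range of the Y-linked probe sets. The Hoxa5 call belonged to 1 of 2 probe sets. The other reached 7.64 in published primary tumors, 10.14 in new primary tumors and 9.83 in passaged tumors, against 4.94 to 5.59 in normal epithelium, and did not pass.

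Among the genes that segment the Mullerian duct, Hoxa10 lay between 4.16 and 7.89 in tumors (median 4.99), against 5.16, 5.69 and 8.43 in normal epithelium, and its difference of -1.07 did not pass (adjusted p = 0.216). Hoxa9 (-0.32, adjusted p = 0.0686) and Hoxa11 (-0.05, adjusted p = 0.724) did not pass either. Hoxb2 was the Hoxb gene that fell, by 0.46 (SE 0.14, adjusted p = 0.0104), with 4.58 to 5.48 in tumors and 5.43 to 5.55 in normal epithelium. Of its 26 tumor levels, 20 were in the range of the Y-linked probe sets. Hoxc6 fell by 0.44 (SE 0.10, adjusted p = 0.0012), but of its 3 probe sets only the brightest passed, and another differed by 0.17 in the other direction. Over all 48 Hox probe sets, 14 fell and none rose, and no share over all probe sets of the array is given beside this count.

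**Figure D2:**
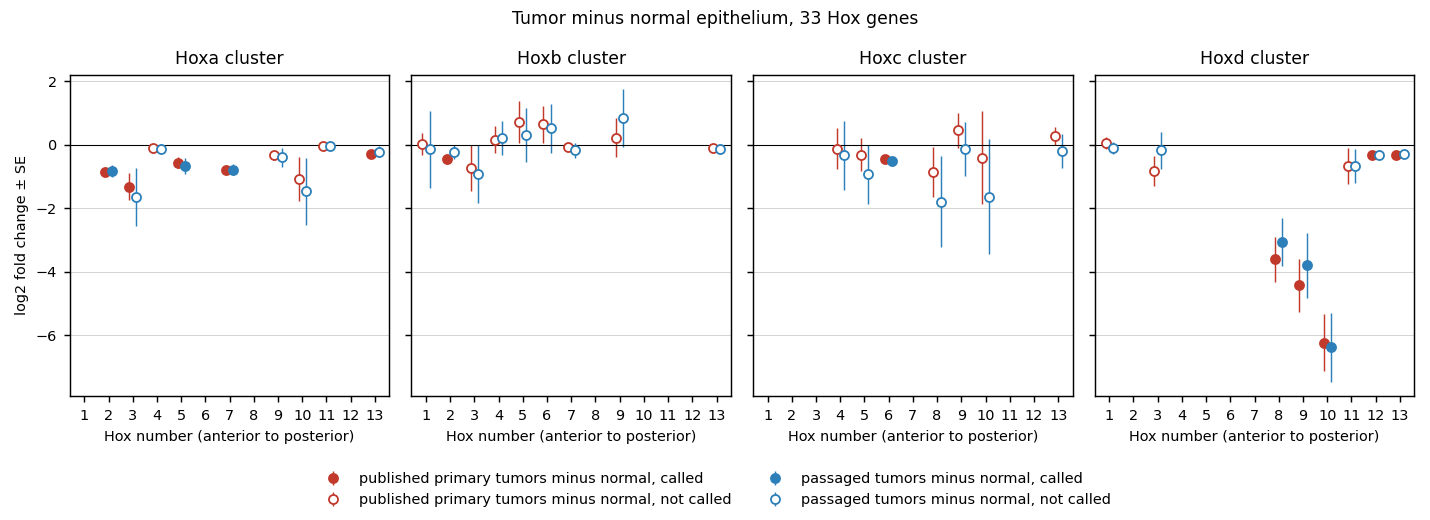
Log2 fold change ± SE (y axis) of the 33 Hox genes by Hox number from anterior to posterior (x axis), 1 panel a cluster, for 26 published primary tumors (red) and 23 passaged tumors (blue), each minus 3 normal samples; filled points have an adjusted p below 0.05. Hoxd8, Hoxd9 and Hoxd10 lie between -3.05 and -6.38, and all filled points lie below 0.

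Passaged tumors were set against the same 3 normal samples, with the set as a covariate, so this comparison shares its normal arrays with the one above. Genotype was not in this model, and only the published set held Brca2-deficient and p53-missense tumors. Again no Hox gene rose, beside 1832 of 18193 genes that did, and 7 of 33 fell, beside 17.1% of all genes. Hoxd10 was at 4.34 to 8.82 with a median of 5.41 in the 23 passaged tumors, Hoxd9 at 6.58 to 11.15 (median 9.04) and Hoxd8 at 7.44 to 10.12 (median 8.85), and every passaged tumor lay below all normal samples for these 3 genes. The differences were -6.38 (SE 1.08, adjusted p = 6.75e-06), -3.80 (SE 1.03, adjusted p = 0.00405) and -3.05 (SE 0.75, adjusted p = 0.00167). Hoxa2 (-0.83, adjusted p = 0.000379) and Hoxa7 (-0.78, adjusted p = 0.000312) also fell, each with 21 of 23 passaged tumors below all normal samples. Hoxa5 (-0.66, adjusted p = 0.0339) and Hoxc6 (-0.50, adjusted p = 0.0172) passed the test with all tumors and not without new primary tumor 29255, whose array enters the estimate of the difference between sets.

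Each published genotype was compared with the same normal samples. Of 33 Hox genes, 10 fell in Brca2-deficient p53-missense tumors, 8 in Brca1-deficient p53-missense tumors, 11 in Brca1-deficient p53-deleted tumors and 10 in tumors with wild-type Brca genes, beside 21.8%, 14.8%, 23.9% and 21.4% of all genes in this order. In the same order, Hoxd10 differed by -6.17, -6.89, -6.20 and -5.92, Hoxd9 by -4.16, -4.92, -4.54 and -4.00, and Hoxd8 by -4.06, -3.85, -3.47 and -3.34. Hoxa2 and Hoxa7 fell in all 4 genotypes. Without normal replicate 1 the counts of lower Hox genes were 7, 8, 7 and 6, and without replicate 3 they were 8, 7, 6 and 7. The share of all genes in these refits is not given beside them. In Brca1-deficient p53-missense, Brca1-deficient p53-deleted and wild-type Brca tumors no Hox gene rose, beside 1780, 2626 and 2175 of 18193 genes. The only Hox gene that rose was Hoxb5, in Brca2-deficient tumors, beside 12.8% of all genes. Hoxb5, a gene of the cervical and upper thoracic axis, lay between 7.15 and 9.39 with a median of 8.93 in the 5 Brca2-deficient tumors, against 6.05, 6.36 and 7.44 in normal epithelium. It rose by 1.96 (SE 0.64, adjusted p = 0.019). The lowest tumor lay within the normal range, and the call was lost without normal replicate 1 (adjusted p = 0.0661) or 3 (adjusted p = 0.0927).

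Comparisons between tumor genotypes asked whether the Brca or p53 allele went with Hox levels. Brca2-deficient p53-missense tumors had 5 Hoxb5 levels of 7.15 to 9.39, against 5.58, 5.85 and 7.78 in Brca1-deficient p53-missense tumors, a difference of 2.17 (SE 0.64, adjusted p = 0.4). Hoxb3 (1.86, adjusted p = 0.511), Hoxb6 (1.09, adjusted p = 0.439) and Hoxd10 (0.72, adjusted p = 0.546) came next. No Hox gene and 0% of all genes passed in limma, while 3 Hox genes and 1687 genes had an unadjusted p below 0.05. Brca1-deficient p53-missense tumors were compared with Brca1-deficient p53-deleted ones, where 0.0715% of all genes and no Hox gene passed, and 1 Hox gene had an unadjusted p below 0.05. That gene was Hoxa4, with 5.71, 5.86 and 6.02 in missense tumors and 5.27 to 5.69 (median 5.56) in deleted tumors, so that the groups did not overlap (difference 0.31, SE 0.087, adjusted p = 0.197). Hoxb3 (-1.52), Hoxc5 (0.83) and Hoxa7 (0.16) had adjusted p values of 0.527, 0.598 and 0.599. Brca1-deficient against wild-type tumors with deleted p53 gave 0.0055% of all genes, 1 gene, and no Hox gene, with 1 Hox gene at an unadjusted p below 0.05. Hoxa10 lay between 4.16 and 7.05 in the 14 Brca1-deficient tumors, against 4.64 to 7.89 in the 4 wild-type tumors (difference -1.28, SE 0.57, adjusted p = 0.98), and Hoxb5 (-0.86), Hoxd13 (0.12) and Hoxc13 (0.42) had the same adjusted p.

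The Brca1 comparison in the new set did give a Hox call. Hoxb5 was lower in Brca1-deficient tumors, at 5.54 to 7.39 with a median of 6.60 and a mean of 6.63 ± 0.56 (SD, n = 16), against 6.52 to 9.86 with a median of 7.86 and a mean of 7.97 ± 1.19 (SD, n = 11) in tumors with wild-type Brca genes. The difference was -1.32 (SE 0.34, adjusted p = 0.0123), 2.50-fold, and 1 of 33 Hox genes fell beside 4.82% of all genes. The ranges overlapped between 6.52 and 7.39. The paper describes the new set as primary tumors and orthotopic tumors derived from them, and it held 2 Brca1-deficient and 3 wild-type primary tumors. Tumors of 1 line were counted as separate samples, so n is not a number of independent tumors. The SE and adjusted p measure the spread between these samples only. The K18 label also differed between the 2 genotypes (K18 tg and K18 D/D), so by label it cannot be told apart from Brca1. The highest wild-type tumors were primary tumor 32233 (9.86), tumor 61333 at passage 2 (9.58) and tumor 57093 at passage 1 (9.41). Endothelial markers were also lower in the Brca1-deficient tumors, with 3 of 6 genes past the test (Cldn5 -0.83, Tie1 -0.48 and Cdh5 -0.42) and a list mean of 7.53 to 8.34 (median 7.94), against 7.73 to 8.97 (median 8.24) in tumors with wild-type Brca genes. Unlike the tests, these list means cover all 18 and 12 arrays, with the near-identical pairs kept. Of other marker lists, Cyp17a1 (1.45) and Msln (0.72) were higher and Gdf9 (-1.49), Sox17 (-0.80), Krt7 (-0.40) and Ms4a1 (-0.30) lower. Of TALE cofactors of HOX proteins, Pknox2 (2.62) and Meis1 (1.45) were higher and Pbx3 (-0.68) and Pbx4 (-0.66) lower. Of Polycomb genes, Phc1 (0.64) was higher and Rnf2 (-0.42) and Phc3 (-0.41) lower. The retinoic acid gene Stra6 (1.91) was higher, and Hibadh (-0.38), a neighbor of a Hox cluster, lower. The part of these markers and genes in the Hoxb5 difference was not tested. With primary tumors and passages 1 and 2 alone, where both genotypes are present, the difference was -1.22 and did not pass (adjusted p = 0.132). Hoxc10 (-1.86, adjusted p = 0.132), Hoxd3 (0.63, adjusted p = 0.117) and Hoxc9 (-0.68, adjusted p = 0.399) did not pass. In the published set Hoxb5 lay between 5.21 and 8.88 (median 6.93) in Brca1-deficient p53-deleted tumors, against 7.52 to 8.38 (median 7.67) in wild-type ones. The Brca1 difference in Hoxb5 was not shown to differ between the sets (new minus published -0.46, SE 0.60, adjusted p = 0.785).

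**Figure D3:**
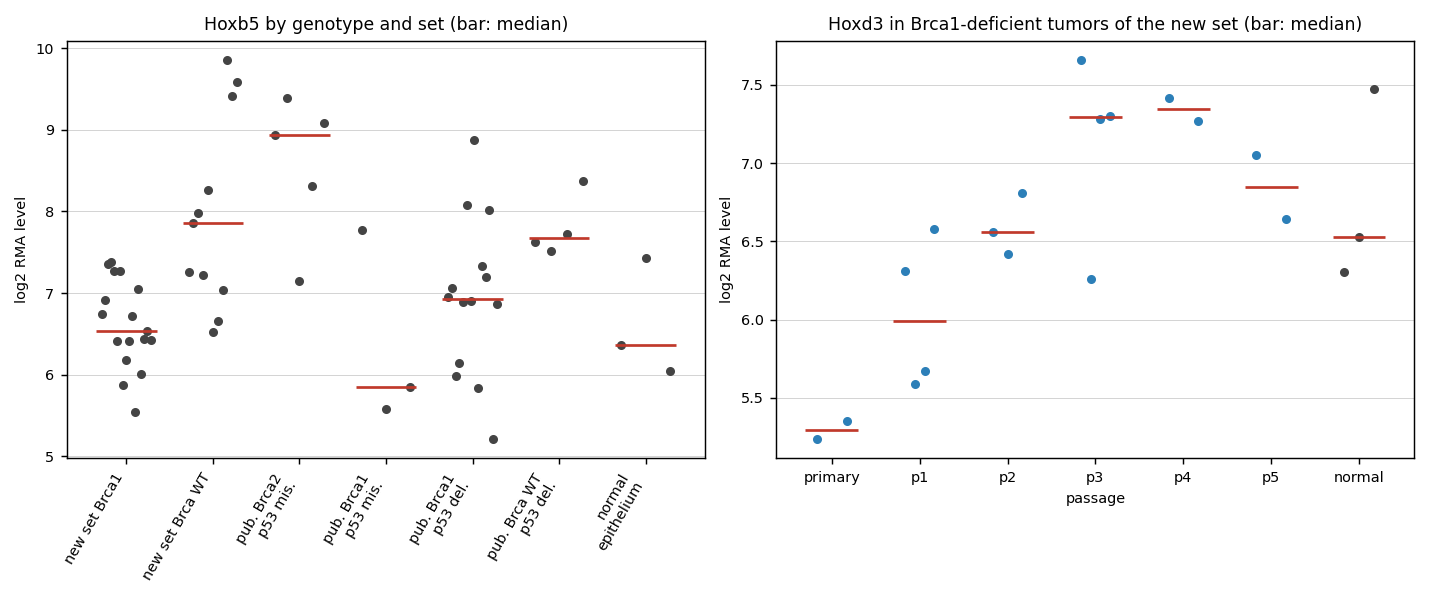
Left, Hoxb5 level (log2 RMA, y axis) by genotype and set (x axis), with the passage 2 near-identical pair left out. Right, Hoxd3 level (log2 RMA, y axis) by passage (x axis) in Brca1-deficient tumors of the new set, with normal epithelium at the right; points are arrays and bars medians. Hoxb5 is at most 7.39 in the new Brca1-deficient tumors, and Hoxd3 is lowest in the 2 primary tumors (5.24 and 5.35).

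Whether passaging moved Hox levels was tested within the new set. Between 22 passaged and 5 primary tumors, with Brca1 genotype in the model and the near-identical passage 2 pair left out, no Hox gene and 0% of all genes passed in limma, with 1019 genes and no Hox gene at an unadjusted p below 0.05. The smallest p among Hox genes was that of Hoxd1 (adjusted p = 0.903). Hoxd8 (0.49), Hoxd3 (0.53) and Hoxb2 (0.21) had adjusted p values of 0.928, 0.938 and 0.99. The 5 new primary tumors against 18 published ones with deleted p53, with tumor 30200 on both sides, gave 0.357% of all genes and no Hox gene, with 2 Hox genes at an unadjusted p below 0.05. These were Hoxd12 (difference 0.24, adjusted p = 0.244) and Hoxb13 (0.20, adjusted p = 0.306), and Hoxc4 (-1.21, adjusted p = 0.429) and Hoxb1 (0.97, adjusted p = 0.471) followed. Without the published array of tumor 30200, 0 Hox genes passed as well.

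Along the passages of Brca1-deficient tumors, with the primary tumors as passage 0, 1 Hox gene rose, beside 9.1% of all genes. Hoxd3, an anterior gene that shapes the first neck vertebrae, had 5.24 and 5.35 in the primary tumors, 5.59, 5.67, 6.31 and 6.58 at passage 1, and 6.42, 6.56 and 6.81 at passage 2. It had 6.26, 7.66 and the near-identical 7.28 and 7.30 at passage 3, 7.27 and 7.41 at passage 4, and 6.64 and 7.05 at passage 5. The slope was 0.35 per passage (SE 0.076, n = 16, adjusted p = 0.00594), and at passages 1 to 5 all values were above both primary tumors. Without the primary tumors the slope was 0.27 and did not pass (adjusted p = 0.0546). Leaving out primary tumor 39877 added Hoxc4 and Hoxc5 to the genes that rose and Hoxb3 and Hoxb9 to those that fell. The line a tumor belonged to and its passage cannot be told apart, and tumors of 1 line were counted as separate samples. Marker lists of other cells also had slopes above 0 that passed, in 4 of 6 T and B cell genes, 3 of 6 macrophage genes, 2 of 6 skeletal muscle genes, 2 of 6 endothelial genes, 2 of 11 stromal genes (Dcn and Thy1), 1 of 5 adipocyte genes (Fabp4) and 1 of 8 granulosa, theca and luteal genes (Cyp17a1). Of 12 surface epithelium genes, Upk1b, Wt1 and Upk3b had slopes above 0 and Cdh1 and Gpm6a slopes below 0 that passed. Their part in the Hoxd3 slope was not tested. Hoxc4 (0.55, adjusted p = 0.0947), Hoxd1 (0.06, adjusted p = 0.0977) and Hoxc5 (0.44, adjusted p = 0.131) did not pass.

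Many Hox genes varied from tumor to tumor more than most genes, but not all did. In published primary tumors the SD of Hoxa2, Hoxb7, Hoxd13 and Hoxa7 lay at percentiles 3.91, 4.6, 6.09 and 9.81 of all genes. The SD over the 26 published primary tumors had a median of 0.718 over Hox genes and 0.306 over all genes, and 13 of 33 Hox genes lay above the value exceeded by 5% of all genes, 0.96. In passaged tumors the median was 0.614 over Hox genes and 0.33 over all genes, with 12 of 33 Hox genes above 1.07, the value exceeded by 5% of all genes there. The widest in published primary tumors were Hoxc10 (SD 2.57), Hoxd10 (1.61), Hoxd9 (1.46), Hoxc8 (1.37) and Hoxb3 (1.27), n = 26 each. The Hoxd values rest partly on tumor 235746, without which the SD was 0.786 for Hoxd10, 1.13 for Hoxd9 and 0.994 for Hoxd8 (n = 25 each). The median over Hox genes was then 0.62, beside 0.292 over all genes, and 11 of 33 Hox genes, without Hoxd10 and Hoxd11, lay above the value that 5% of all genes exceeded, 0.921. In passaged tumors Hoxc8 (SD 2.26), Hoxb1 (2.10), Hoxc10 (1.98) and Hoxc4 (1.66) were wide, n = 23 each.

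**Figure D4:**
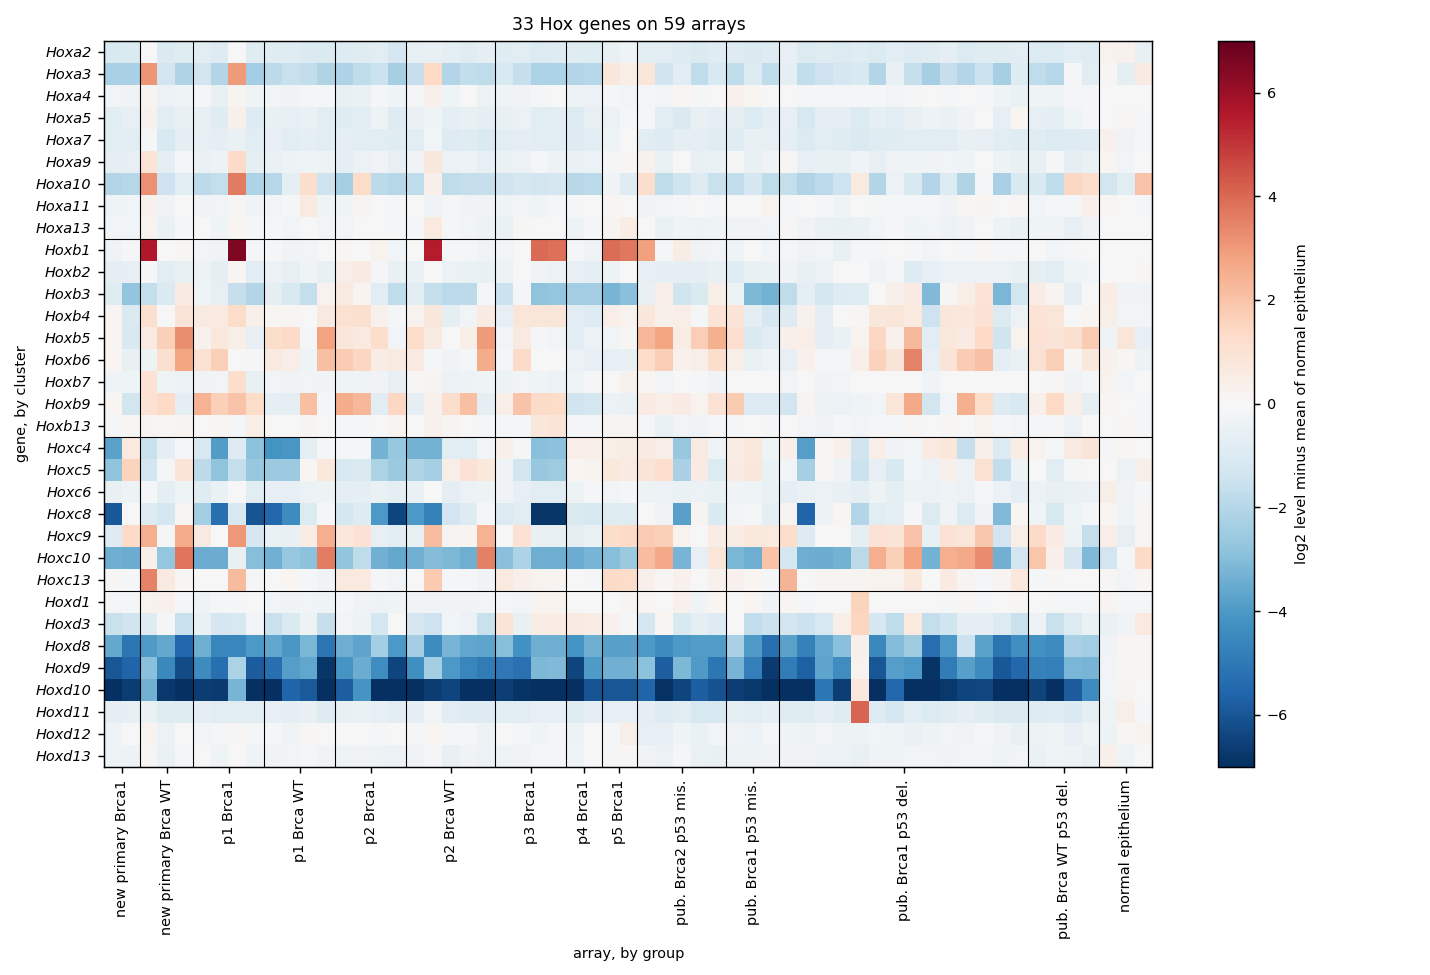
Log2 level minus the mean of 3 normal samples (color) for 33 Hox genes in cluster order (rows) on 59 arrays by group (columns). Hoxd8, Hoxd9 and Hoxd10 form a blue band in all tumors but 1, and Hoxb1, Hoxa3 and Hoxa10 are red in a few tumors.

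For Hoxb1, a retinoic acid target that specifies a hindbrain segment, the spread came from a few tumors. It was at 4.29, 4.36 and 4.37 in normal epithelium and between 3.85 and 4.88 in most tumors. In tumor 57452 at passage 1 it stood at 10.87, in new primary tumor 29255 at 9.96, in tumor 60514 at passage 2 at 9.82, and in published Brca2-deficient tumor 15825 at 7.21. The passage 5 tumors 65026 and 65076 had 8.23 and 8.01, and the near-identical passage 3 arrays 65021 and 64644 had 8.28 and 8.22. Several of these tumors were also the highest for Hoxa3, with 11.16 in 29255, 11.04 in 57452, 9.46 in 60514, 8.90 in 15825, 8.86 in 65026 and 8.49 in 65076, while the near-identical passage 3 pair was not. Hoxa10, Hoxa9 and Hoxc13 were high in 57452 (10.07, 8.40 and 6.75) and in 29255 (9.61, 8.01 and 7.98). The labels call tumor 57452 Brca1-deficient and tumors 29255 and 60514 Brca wild type.

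Hoxc10 and Hoxc8 split the tumors in other ways. Hoxc10, a posterior gene of the lumbar axis and hindlimb, ranged over 4.57 to 11.38 in published primary tumors, against 6.75, 7.98 and 9.47 in normal epithelium. In the new set it was at 11.79 in primary tumor 32233, 11.63 in tumor 57093 and 11.57 in tumor 61333, the 3 tumors that were also highest for Hoxb5, whereas the passaged tumors had a median of 5.10. Hoxb6 was at 7.86, 7.23 and 7.72 in the same 3 tumors, against 4.75 to 5.39 in normal epithelium. Hoxc8, a thoracic gene, was at 11.76, 12.17 and 12.19 in normal epithelium and had a median of 11.74 in published primary tumors. It was low in tumor 30200 (6.08 in the new set and 6.44 in the published set) and in passaged tumors 61345 (5.62), 56234 (6.55) and 47343 (6.76), with 5.21 and 5.23 in the near-identical passage 3 pair. Hoxc4, the most anterior Hoxc gene, was at 11.55 to 11.73 in normal epithelium and also low in 30200 (7.88 in the new set, 7.78 in the published set), 56234 (7.43), 56230 (7.56) and 47343 (7.70). These values describe single tumors and were not tested.

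**Figure D5:**
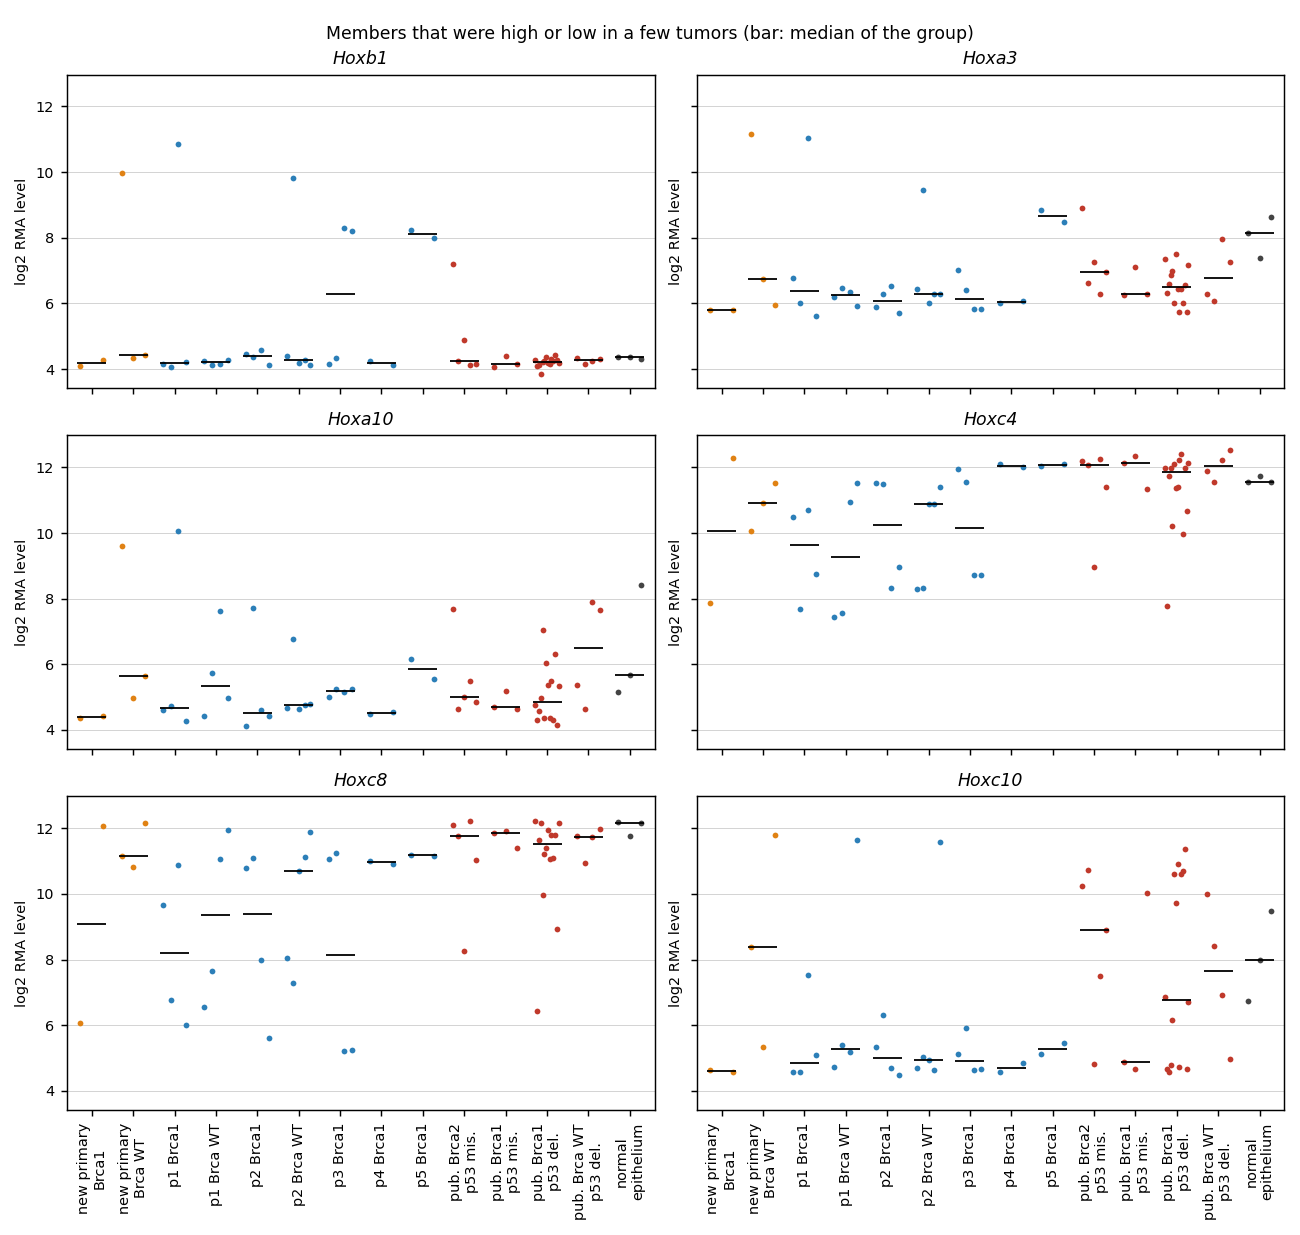
Levels of Hoxb1, Hoxa3, Hoxa10, Hoxc4, Hoxc8 and Hoxc10 (log2 RMA level, y axis) on all 59 arrays by group (x axis); points are arrays and bars are group medians. Hoxb1 reaches 10.87 in a passage 1 tumor and stays between 3.85 and 4.88 in most arrays, while Hoxc8 and Hoxc4 drop below 8 in a few tumors.

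Partners and regulators of Hox genes were followed in the same tumor comparison. The lists were fixed with earlier results known, and their counts stand beside the 15% of all genes that rose and the 26% that fell. Of 8 measured TALE cofactors, Pbx4 (1.37) and Pknox1 (0.90) rose and Pknox2 (-1.83) and Meis3 (-0.76) fell. Of 16 Polycomb genes, 7 rose and 1 fell in published primary tumors against normal epithelium. The methyltransferase gene Ezh2 (1.21), the chromodomain gene Cbx2 (0.89) and Phc1 (0.66) were among those that rose, and Bmi1 (-0.81) fell. Of 12 Trithorax, histone-modifying and Cdx genes, 5 rose, among them Kmt2a (1.63), Dot1l (1.50), Kdm6b (1.38) and Kmt2d (1.08), and Cdx1 (-0.72), itself an activator of Hox genes, fell. Of 15 retinoic acid genes none rose and 3 fell. Crabp1, which binds retinoic acid in the cytoplasm, lay between 4.26 and 5.22 (median 4.49) in tumors, against 7.17, 8.09 and 8.92 in normal epithelium (-3.50, adjusted p = 2.21e-14), and Crabp2 (-0.87) and the receptor gene Rxrb (-0.37) also fell.

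The surroundings of the clusters did not move as one. Among 12 neighboring genes, 4 rose and 3 fell in published primary tumors. Lnpk, which lies beside the Hoxd cluster, rose by 1.19 (adjusted p = 0.000508), and Evx2, next to Hoxd13, fell by 0.37 (adjusted p = 0.00607). Mtx2, on the anterior side of the Hoxd cluster, differed by 0.05 and did not pass. Of 3 cluster noncoding RNAs with a probe set, Hoxd3os1 fell by 2.81 (SE 0.72, adjusted p = 0.00242), with a median of 6.09 in tumors (5.15 to 10.79) against 7.33 to 10.37 in normal epithelium, and Hoxa11os fell by 0.23.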

How the data were processed

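Transcript levels came from 59 Affymetrix mouse genome arrays. Per the labels, 10 ng of RNA was amplified with the Ovation Whole Blood kit. The authors deposited log2 values of 45037 probe sets, from 3.25 to 14.31, which per the labels came from RMA. Array medians of the deposited log2 values ran from 7.20 to 7.51. The version of RMA is not stated in those labels. Arrays give no counts, so their number limits the precision. The authors also deposited a merged human and mouse table of log2 values, used as an alternative over 6167 genes. Another 278 of its columns hold samples outside this series' labels and stayed unused.

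Of the probe sets, 34945 had 1 gene symbol in the platform annotation, 932 had several and 9160 had none. Each of 18193 genes was represented by its brightest probe set on average. Models were fitted with limma 3.58.1 (lmFit, then eBayes, two-sided) in R 4.3.3 with data.table (version 1.17.8). P-values were adjusted over all genes (Benjamini-Hochberg, threshold 0.05). Fits used the arrays of the groups compared. The set was a covariate for passaged tumors against normal epithelium. Brca1 genotype was one for new against published and for passaged against primary tumors, and passage status for Brca1 in the new set. The fits of all published primary or passaged tumors against normal epithelium held no genotype term. Arrays whose log2 difference had an SD under 0.1 counted as 1 sample. The fits were tested on simulated data. Tables and figures used Python 3.11.15, numpy 2.4.6 and matplotlib 3.10.9.

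Named are up to 12 Hox genes with the largest change in published primary tumors, up to 4 with the smallest adjusted p in each other comparison, up to 5 with the largest SD, and all that rose. From other lists, up to 4 called genes with the largest change are given. Members and lists were chosen with earlier results of these data known. Alternatives were other probe set rules, a filter on low levels, weights for arrays, a robust and trended eBayes and the merged table. Others were every array as a sample, other sample choices and leaving out single replicates of the smaller groups.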

Additional observations from a re-analysis of the deposited data

Results flagged for a closer look

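Of 135 sets of values (27 named Hox genes, each in 5 groups of 4 to 10 arrays), 17 held 1 array far from the others. Chance flags about 1 in 20 such sets, but some of these genes were named for their wide spread and the sets share tumors, so the 17 are a description only. Most came from a few tumors. At passage 1, tumor 57452 among the Brca1-deficient tumors had 10.07 for Hoxa10 (others 4.28 to 4.74), 6.75 for Hoxc13 (others 4.46 to 4.57) and 10.87 for Hoxb1 (others 4.07 to 4.23). Tumor 57093, with wild-type Brca genes, had 11.63 for Hoxc10 (others 4.72 to 5.39).

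At passage 2 in tumors with wild-type Brca genes, 60514 had 9.46 for Hoxa3 (others 6.01 to 6.30), 7.44 for Hoxa7 (others 6.64 to 6.76), 6.76 for Hoxa10 (others 4.64 to 4.81), 6.36 for Hoxc13 (others 4.27 to 4.43), 9.82 for Hoxb1 (others 4.12 to 4.28) and a low 6.72 for Hoxc5 (others 9.54 to 10.09). Tumor 61333 had 11.57 for Hoxc10 (others 4.64 to 5.02), 7.72 for Hoxb6 (others 4.88 to 5.01) and 9.08 for Hoxb3 (others 7.28 to 7.52).

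Among published Brca2-deficient tumors, 15825 had 7.67 for Hoxa10 (others 4.62 to 5.50) and 7.21 for Hoxb1 (others 4.11 to 4.88), 21981 had 8.11 for Hoxd8 (others 8.51 to 8.64), and 23172 had 8.96 for Hoxc4 (others 11.39 to 12.25). Signal above normal epithelium was also seen in probe sets that name both Hoxd3 and Hoxd4, which the comparisons did not use. One reached 6.15 in tumor 238767, against 5.22 to 5.51 in normal epithelium, and the other reached 7.48 in tumor 235746, against 5.41 to 5.81 in normal epithelium.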

How the results depend on the processing

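No Hox call reversed under the alternatives run. In published primary tumors against normal epithelium, 5 genes with several probe sets (Hoxa10, Hoxb3, Hoxb4, Hoxc5 and Hoxc6) had probe sets of both signs, and of these genes Hoxc6 alone was called. Counts of Hox calls stayed within 1.5 times their main value in 267 checks and not in 29, and single genes kept their side of the threshold in 548 checks and lost the call in 78. With only genes at or above the median level, 4 Hox genes were left, and 2 fell in each of the comparisons with normal epithelium, with 0 for the Hoxb5 rise in Brca2-deficient tumors, for the passage slope and for the Brca1 comparison of the new set. Array weights gave 12 lower in passaged tumors, 16 lower and 1 higher in wild-type Brca tumors, 1 higher in Brca1-deficient p53-missense tumors, 16 lower in Brca2-deficient tumors, and 11 slopes above 0 and 3 below. Shares of all genes under the alternatives are not given here, so these counts have no background beside them. The merged table, with 21 Hox genes, gave 5 lower in published primary and 3 lower in passaged tumors. There Hoxd10 differed from normal epithelium by -2.26 in published primary and -2.37 in passaged tumors, and Hoxd9 by -2.45 and -1.92, all past the threshold.

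Single replicates were left out in the smaller groups of a comparison, among them the 3 normal samples, and not for every array. The counts that follow have no share of all genes beside them either. Leaving out 1 normal replicate gave 7 to 9 lower in published primary tumors against normal epithelium (7 without normal replicate 1). Leave-outs gave 6 to 10 lower in wild-type Brca tumors (6 without normal replicate 1). In Brca1-deficient p53-deleted tumors they gave 6 to 8 lower (7 without normal replicate 1, 6 without replicate 3). In Brca2-deficient tumors they gave 0 to 1 higher (0 without normal replicate 1 or 3). For the passage slope, primary tumors and passages 4 and 5 were left out singly, which gave 1 to 3 higher and 0 to 2 lower. The highest counts came without primary tumor 39877. With passaged tumors only, 2 slopes were above 0 and 1 below, and with primary tumors and passages 1 and 2 only, 0 Hox genes differed by Brca1 in the new set. The cause of these shifts was not tested, apart from fewer genes or samples where an alternative has them. Leaving out tumor 235746 (for the spread too) or 29255 and the test of the Brca1 difference between sets were chosen after seeing the data. No paired analysis was possible because the labels give no replicate numbers and do not tie passaged tumors to primary ones. With 3 normal samples, every comparison with normal epithelium rests on few arrays.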
